A study of Homo sapiens with 9 samples.

Results

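Sphingolipid synthesis starts with serine palmitoyltransferase, and ceramide is the hub from which its other products are made and to which they return. The members described here are 8 genes of these steps: the serine palmitoyltransferase genes SPTLC1, SPTLC2, SPTLC3 and SPTSSB, the ceramidase genes ACER1 and ASAH1, the glucosylceramide synthase gene UGCG and the acid sphingomyelinase gene SMPD1. They were found by gene symbol among the 24672 genes of the deposited tables, and all 8 were present and kept by the filter on low counts. They were chosen by their place in the pathway and by measured levels in these same libraries, so their differences are given as descriptions without a test. Tests are given for 42 of 49 other sphingolipid genes listed, those that could be tested. Their list was also drawn up with earlier results of these data known, so the shares of it that passed are descriptions.

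The cells were EPC2, a human esophageal epithelial line immortalised with telomerase reverse transcriptase. RNA was sequenced from 3 ALI silenced libraries (SPINK7 silenced, differentiated at an air-liquid interface), 3 ALI control libraries (a non-silencing control, NSC, differentiated in the same way) and 3 monolayer libraries (NSC cells left undifferentiated). SPINK7 encodes a Kazal-type protease inhibitor of squamous epithelium. All 3 groups grew in keratinocyte serum-free medium with epidermal growth factor at 1 ng/mL and pituitary extract of cattle at 50 ug/mL. For the ALI groups, calcium was 0.09 mM from seeding and 1.8 mM from day 2, air contact began on day 7 and RNA was taken on day 14. The sources used here do not give the calcium or the day of the monolayers. The labels name 1 silenced population, so loss of SPINK7 and other effects of the silencing construct cannot be told apart. The labels do not say that the 3 libraries of a group were separate cultures, so p-values rest on a spread that may be technical. The names of the deposited ALI tables give another day, 7, and partly other numbers; groups, numbers and days here follow the labels.

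Serine palmitoyltransferase joins serine to a fatty acyl-CoA. Its core pairs SPTLC1 with either SPTLC2 or SPTLC3, a small activating subunit (SPTSSA or SPTSSB) is bound to the core, and ORMDL proteins restrain the enzyme. In stratified epithelium, ceramides and the glucosylceramides they are stored as supply the lipid layers of the outermost cells, and ceramidases release sphingosine from them.

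Libraries held between 7641960 and 14009746 counts. Levels are CPM, library-scaled counts with TMM-adjusted sizes. A first principal component of these on the log2 scale held 71.4% of the variance and set the monolayers apart from the ALI libraries. On the second, with 14% of the variance, the ALI libraries numbered 2 lay at -25.5 (silenced) and -78.5 (control), while the other ALI libraries lay between 14.3 and 55. The summed level of 4 proliferation markers (MKI67, TOP2A, CCNB1 and CDK1) was 288, 9.41 and 270 CPM in the ALI silenced libraries, 120, 17.0 and 123 CPM in the ALI control libraries, and 15.9 to 39.8 CPM in the monolayers. Some results that move with the libraries numbered 2 are therefore given with and without them, but not all. Squamous markers (8 of 8 measured, KRT5 and KRT14 among them) summed to 42840 to 81330 CPM in the ALI silenced, 31550 to 77480 CPM in the ALI control and 25840 to 26580 CPM in the monolayer libraries. Of the markers of other cell types, fibroblast genes (1 of 7 above the filter on low counts) summed to 20.8 to 45.6 CPM in the ALI silenced, 12.2 to 49.2 CPM in the ALI control and 50.1 to 186 CPM in the monolayer libraries, with LUM at 0 counts in all groups. Leukocyte genes (1 of 6 above the filter) summed to 66.6 to 87.2 CPM in the ALI silenced libraries, 53.2 to 69.7 CPM in the ALI control libraries and 15.7 to 29.6 CPM in the monolayers, with the leukocyte gene PTPRC at 0 counts in all groups. Nearly all of the fibroblast sums came from COL1A1, with 184, 51.3 and 48.2 CPM in the monolayers. CD68 made up nearly all of the leukocyte sums, with 71.2, 87.0 and 66.5 CPM in the ALI silenced libraries. These sums thus rest on 1 gene each and are not levels of a cell type. Endothelial genes (1 of 4) reached at most 2.34 CPM in the ALI silenced, 9.62 CPM in the ALI control and 0.567 CPM in the monolayer libraries. Melanocyte genes (1 of 4) reached at most 1.99 CPM in the ALI silenced, 3.28 CPM in the ALI control and 1.98 CPM in the monolayer libraries, with TYR and DCT at 0 counts throughout. In bulk RNA, fewer cells of a type and less RNA per cell cannot be told apart. SPINK7 itself stood at 20.9, 38.6 and 32.7 CPM in the ALI silenced libraries, against 230, 261 and 225 CPM in the ALI control libraries, a log2 difference of -2.95 (SE 0.30) that passed edgeR's test at an adjusted p = 0.00246.

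SPTLC3 (chr20:12989627-13147411, plus strand, hg19), the catalytic subunit that can take the place of SPTLC2, had 42.2, 39.4 and 53.1 CPM in the ALI silenced libraries, 109, 123 and 118 CPM in the ALI control libraries, and 10.6, 5.06 and 6.81 CPM in the monolayers. The 3 groups did not overlap: monolayers were lowest, silenced ALI cultures intermediate and ALI controls highest. The silenced level was 38.5% of that in ALI controls, a log2 fold change of -1.38 (SE 0.26). Relative to monolayers, SPTLC3 was 5.96-fold higher in the ALI silenced libraries, a log2 fold change of 2.58 (SE 0.28). The ALI controls differed from the monolayers by a log2 fold change of 3.95 (SE 0.29).

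SPTLC2 (chr14:77972340-78083110, minus strand), the broadly expressed catalytic subunit, took the opposite order between ALI cultures and monolayers. It had 79.5, 108 and 76.0 CPM in the ALI silenced libraries, 108, 99.6 and 87.4 CPM in the ALI controls, and 130, 156 and 162 CPM in the monolayers. All 6 ALI libraries were below all 3 monolayers, while the ALI groups overlapped each other. The log2 fold changes were -0.16 (SE 0.20) for silenced against control ALI cultures, -0.60 (SE 0.20) for ALI controls against monolayers and -0.76 (SE 0.20) for silenced cultures against monolayers. Without both ALI libraries numbered 2 the first of these was -0.33.

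SPTLC1 (chr9:94793427-94877690, minus strand), the subunit shared by both forms of the core, had 117, 151 and 148 CPM in the ALI silenced libraries, 142, 254 and 108 CPM in the ALI controls, and 88.4, 91.0 and 93.5 CPM in the monolayers. Every ALI library was above every monolayer, with 1 control library, number 2, far above the rest. The log2 fold change was -0.28 (SE 0.29) for silenced against control ALI cultures. It was 0.88 (SE 0.29) for ALI controls against monolayers. Without ALI control library 2 these values were 0.15 and 0.46, so the sign of the SPTLC1 difference between the ALI groups rested on that library.

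Levels of different genes were compared only per transcript length, from the authors' RPKM (reads scaled to transcript length and library size). SPTLC3 made up 53.0, 43.7 and 59.8% of the summed SPTLC2 and SPTLC3 RPKM in the ALI silenced libraries. In the ALI controls it made up 68.2, 72.4 and 74.2%, and in the monolayers 14.7, 6.46 and 8.22%. The shares averaged 52.2 ± 8.05%, 71.6 ± 3.05% and 9.78 ± 4.32% (SD, n = 3 each) in that order, without overlap between groups. Their summed RPKM was 19.4 ± 1.56 in the ALI silenced libraries, 33.6 ± 1.26 in the ALI controls and 18.2 ± 1.40 in the monolayers. The summed level thus overlapped between silenced ALI cultures and monolayers, with SPTLC3 the larger part in 2 of the 3 silenced libraries and SPTLC2 the larger part in all 3 monolayers.

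**Figure D1:**
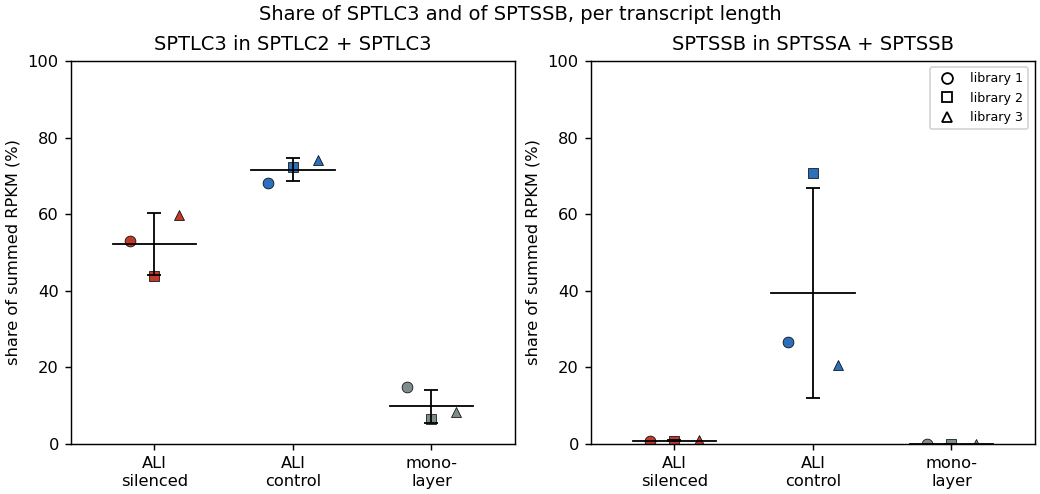
Share of SPTLC3 in the summed RPKM of SPTLC2 and SPTLC3 (left) and of SPTSSB in the summed RPKM of SPTSSA and SPTSSB (right), in percent, in ALI silenced, ALI control and monolayer libraries; points are libraries, and lines are the mean ± SD (n = 3). On the left the means are 52.2, 71.6 and 9.78%, and on the right ALI control library 2 stands at 70.8% above the other 2 controls.

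SPTSSB (chr3:161062580-161089871, minus strand, hg19), the small subunit known to shift the enzyme towards longer acyl-CoA substrates, showed the widest differences of the 8 genes. It had 0.280, 0.412 and 0.468 CPM in the ALI silenced libraries, from 3, 6 and 4 counts. In the ALI controls it had 21.7, 127 and 9.20 CPM, from 162, 1008 and 87 counts. No count was recorded in any monolayer, which allows up to 0.0898 CPM over that group at a floor of 3 counts. Each silenced library was thus far below each ALI control, and the ALI controls themselves differed widely, with library 2 the highest. The silenced level was 0.734% of that in ALI controls, a log2 fold change of -7.05 (SE 1.15). The log2 fold change was -5.28 with ALI control library 2 left out and -5.35 with that library and silenced library 2 left out. Against the floor, SPTSSB was at least 4.28-fold higher in the ALI silenced libraries and at least 563-fold higher in the ALI control libraries than in the monolayers. Of the 1257 counts in the ALI controls, 1008 came from library 2, and without it the bound was at least 164-fold.

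SPTSSA (chr14:34902144-34931468, minus strand), the paralog of SPTSSB, had 46.7, 73.5 and 60.1 CPM in the ALI silenced libraries, 65.8, 57.6 and 39.3 CPM in the ALI controls, and 43.8, 41.9 and 45.0 CPM in the monolayers. The groups of ALI libraries overlapped, and the ALI controls overlapped the monolayers. Every silenced library was above every monolayer, as for 28.0% of all genes. SPTSSA passed the test in none of the 3 comparisons. Its log2 fold change was 0.15 (SE 0.24, edgeR adjusted p = 0.865) for silenced against control ALI cultures, and leaving out 1 library could turn its sign. For ALI controls against monolayers it was 0.31 (SE 0.24, adjusted p = 0.316), and for silenced cultures against monolayers 0.46 (SE 0.24, adjusted p = 0.168). SPTSSB made up 0.655, 0.612 and 0.850% of the summed RPKM of both small subunits in the ALI silenced libraries, against 26.6, 70.8 and 20.5% in the ALI controls and 0% in the monolayers. It was the larger part in ALI control library 2 and a minor part elsewhere.

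The 250 bases before the annotated start of SPTSSB, SPTSSA and ACER1 are shown because SPTSSB and ACER1 had the largest differences between the groups. SPTSSA is the paralog of SPTSSB, with smaller differences that did not pass the test. They come from RefSeq (GRCh38.p14) at chr3:161371518-161371767, chr14:34462241-34462490 and chr19:6333613-6333862, all on the minus strand, written 5′ to 3′ towards the start. Capitals mark matches to GGGCGG.
SPTSSB: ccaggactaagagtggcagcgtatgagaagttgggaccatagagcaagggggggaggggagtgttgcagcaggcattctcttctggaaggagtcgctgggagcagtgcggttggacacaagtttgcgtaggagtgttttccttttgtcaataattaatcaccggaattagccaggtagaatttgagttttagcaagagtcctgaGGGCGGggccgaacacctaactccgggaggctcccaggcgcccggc
SPTSSA: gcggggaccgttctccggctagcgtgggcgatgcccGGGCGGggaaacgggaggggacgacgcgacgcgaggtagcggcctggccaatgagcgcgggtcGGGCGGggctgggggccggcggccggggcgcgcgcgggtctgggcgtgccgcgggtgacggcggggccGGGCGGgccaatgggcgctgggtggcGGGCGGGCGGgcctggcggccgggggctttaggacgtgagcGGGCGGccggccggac
ACER1: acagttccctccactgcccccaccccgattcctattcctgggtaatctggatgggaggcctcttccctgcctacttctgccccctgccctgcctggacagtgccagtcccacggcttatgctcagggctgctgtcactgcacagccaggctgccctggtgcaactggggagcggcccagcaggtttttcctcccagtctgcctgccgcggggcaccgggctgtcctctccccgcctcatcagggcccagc
The GC box GGGCGG was searched on both strands, with overlapping matches counted, as were the AP-1 type motif TGANTCA, the grainyhead type motif AACCGGTT and the TATA box TATAAA. The GC box was matched 1 time in the SPTSSB window, 6 times in the SPTSSA window and 0 times in the ACER1 window, and 42.6% of 35116 windows of the same length held it. The other 3 motifs were not in these windows; the AP-1 type motif was in 6.57%, the grainyhead type motif in 0.117% and the TATA box in 10.7% of all windows. GC content was 54.8% for SPTSSB, 82.0% for SPTSSA and 66.0% for ACER1, against a median of 58.0% over all windows. Which start the cells used was not measured, and a match is a run of letters, not a bound site.

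ACER1 (chr19:6306510-6333640, minus strand, hg19), the alkaline ceramidase of differentiating keratinocytes, had 1.59, 1.44 and 2.69 CPM in the ALI silenced libraries, from 17, 21 and 23 counts. It had 17.3, 11.5 and 22.5 CPM in the ALI controls, from 129, 91 and 213 counts, and no count in the 3 monolayers. The groups were fully separated, with all silenced libraries between the monolayers and the ALI controls. The silenced level was 11.2% of that in ALI controls, a log2 fold change of -3.18 (SE 0.40). Against the floor of 3 counts over the monolayers, ACER1 was at least 20.1-fold higher in the ALI silenced libraries and at least 194-fold higher in the ALI controls.

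ASAH1 (chromosome 8), the acid ceramidase of lysosomes, had 98.9, 241 and 129 CPM in the ALI silenced libraries, 164, 270 and 131 CPM in the ALI controls, and 102, 82.7 and 84.1 CPM in the monolayers. The libraries numbered 2 were the highest in both ALI groups, and the ALI groups overlapped. Its log2 fold change was -0.27 (SE 0.36) for silenced against control ALI cultures, -0.74 with silenced library 2 left out, 0.08 with control library 2 left out and -0.38 with neither in the fit, so its sign rested on single libraries. For ALI controls against monolayers it was 1.07 (SE 0.36), and 0.73 without those 2 libraries. For silenced cultures against monolayers it was 0.80 (SE 0.36), and 0.35 without them. ASAH1 is deposited as 2 transcript rows, and the longer one held 39.7, 16.6 and 25.0% of its counts in the ALI silenced libraries, 0, 15.5 and 14.0% in the ALI controls, and 27.5, 25.5 and 33.9% in the monolayers. The rows cover nearly the same span and no source used here says how reads were divided between them, so the split is given as deposited and the gene was analysed as the sum.

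SMPD1 (chr11:6411644-6416228, plus strand), the lysosomal enzyme that frees ceramide from sphingomyelin, had 14.8, 20.3 and 9.13 CPM in the ALI silenced libraries, 17.7, 13.6 and 19.5 CPM in the ALI controls, and 18.4, 20.2 and 26.5 CPM in the monolayers. All 3 groups overlapped. The log2 fold changes were -0.19 (SE 0.30) for silenced against control ALI cultures, -0.36 (SE 0.30) for ALI controls against monolayers and -0.55 (SE 0.30) for silenced cultures against monolayers. The difference between the ALI groups was -0.52 with silenced library 2 left out, 0.04 with silenced library 3 left out and -0.63 when silenced and control library 2 were both left out, so its sign rested on single libraries.

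UGCG (chr9:114659206-114695433, plus strand), which makes glucosylceramide from ceramide, had 36.5, 36.9 and 30.6 CPM in the ALI silenced libraries, 41.7, 58.8 and 37.3 CPM in the ALI controls, and 24.0, 33.9 and 27.4 CPM in the monolayers. The silenced libraries lay below all ALI controls by a narrow margin, between 36.9 and 37.3 CPM, and they overlapped the monolayers. The log2 fold change was -0.40 (SE 0.23) for silenced against control ALI cultures, 0.69 (SE 0.23) for ALI controls against monolayers and 0.29 (SE 0.23) for silenced cultures against monolayers. Without ALI control library 2 the UGCG difference was -0.19 between the ALI groups and 0.48 between ALI controls and monolayers.

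**Figure D2:**
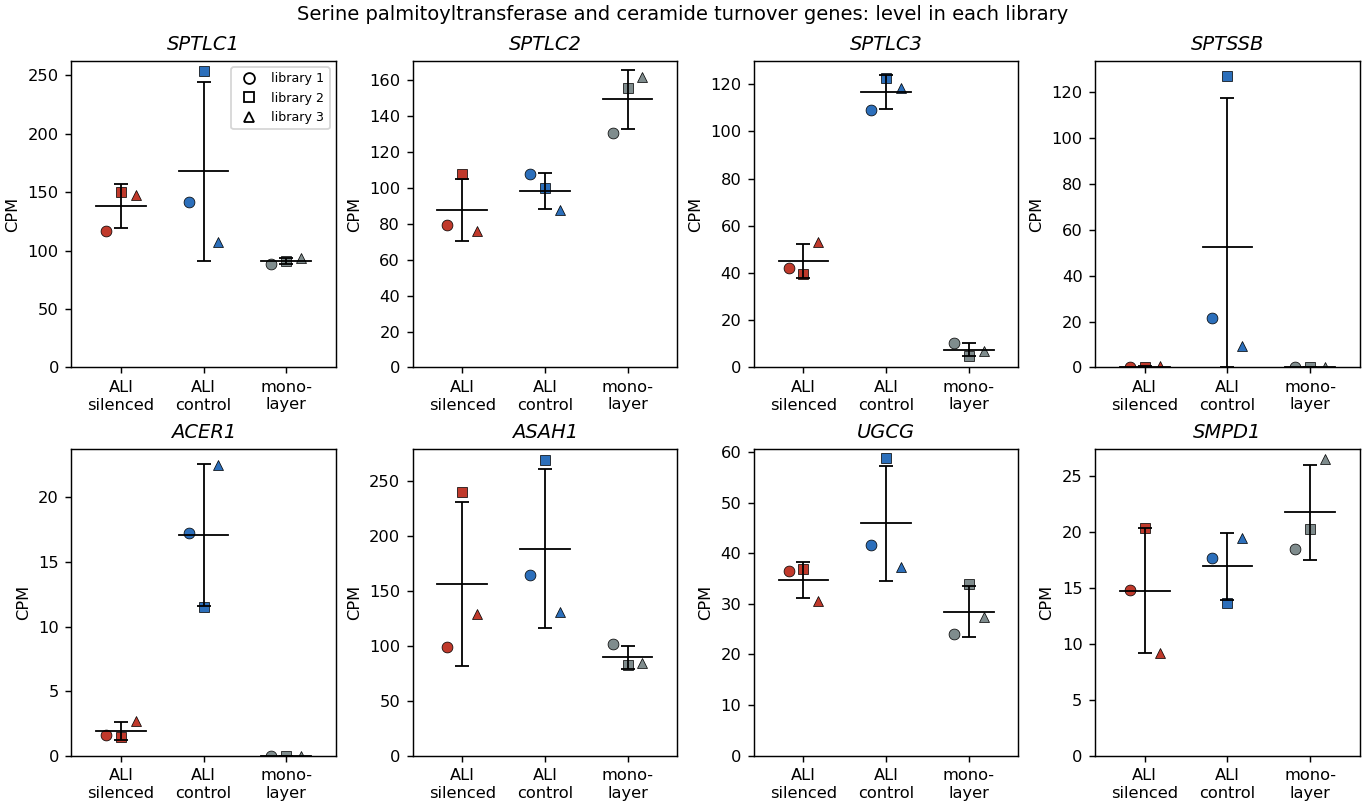
Level of each of the 8 genes in CPM (vertical axis, from 0, its own scale for each gene) in ALI silenced, ALI control and monolayer libraries; points are libraries, marked by library number, and lines are the mean ± SD (n = 3), with the lower bar ending at the axis where the SD exceeds the mean. SPTLC3, SPTSSB, ACER1 and, by a narrow margin, UGCG separate the ALI groups, with SPTSSB spread from 9.20 to 127 CPM among the ALI controls.

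Ordered by mean RPKM, ASAH1 and SPTLC1 led in every group, at 52.1 and 44.2 in the ALI silenced, 56.4 and 48.2 in the ALI control and 31.0 and 30.2 in the monolayer libraries, and their ranges overlapped in each. In the ALI silenced libraries, UGCG (18.4), SPTLC3 (10.1), SPTLC2 (9.30), SMPD1 (5.21), ACER1 (1.51) and SPTSSB (0.145) followed, and of these neighbours only SPTLC3 and SPTLC2 overlapped in range. In the ALI controls the order was SPTLC3 (24.1), UGCG (22.1), SPTSSB (17.1), ACER1 (12.7), SPTLC2 (9.56) and SMPD1 (5.53). There SPTLC3 and UGCG overlapped, as did ACER1 and SPTLC2, and SPTSSB, from 3.31 to 40.2, overlapped all of these. In the monolayers, SPTLC2 (16.4) and UGCG (15.7) overlapped and were followed by SMPD1 (7.94) and SPTLC3 (1.75), with SPTSSB and ACER1 at 0.

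Between silenced and control ALI cultures, CPM did not overlap for 4 of the 8 genes (SPTLC3, SPTSSB, ACER1 and UGCG), all lower in the silenced libraries, where 6.34% of all 12806 genes were lower and 5.76% higher without overlap. The median log2 fold change of the 8 genes was -0.34, beside 0.01 over all genes. Because measured levels entered the choice of the genes, nothing is read from these counts and medians or from those of the other comparisons, and whether any of the 8 passed a test is not given.

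Between ALI controls and monolayers, 6 of the 8 were higher without overlap (SPTLC1, SPTLC3, SPTSSB, ACER1, ASAH1 and UGCG) and 1 was lower (SPTLC2), where 27.3% of all genes were higher and 29.9% lower without overlap. The median log2 fold change of the 8 was 0.98, also with SPTSSB and ACER1 at their bounds, beside 0.03 over all genes. Between silenced cultures and monolayers, 4 were higher without overlap (SPTLC1, SPTLC3, SPTSSB and ACER1) and 1 was lower (SPTLC2), where 28.0% of all genes were higher and 27.7% lower. The 3 comparisons share libraries with one another, so their counts are not independent.

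**Figure D3:**
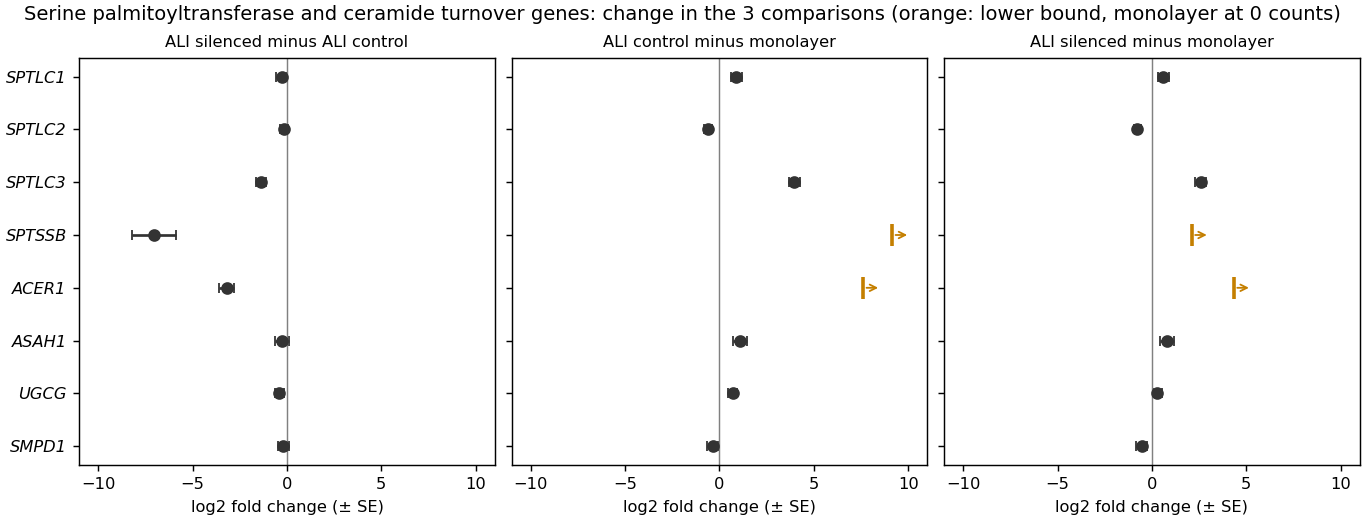
Fitted log2 fold change ± SE of each of the 8 genes for ALI silenced minus ALI control (left), ALI control minus monolayer (middle) and ALI silenced minus monolayer (right); an orange bar with an arrow is the least fold that 3 counts over the monolayers would allow, where SPTSSB and ACER1 had 0 counts. On the left SPTSSB (-7.05), ACER1 (-3.18) and SPTLC3 (-1.38) lie furthest from 0.

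The genes with the pattern most like that of ACER1 were found by Pearson correlation of log2 CPM over the 9 libraries among 11133 genes. They were LOR (0.999), the cornified envelope gene loricrin, the keratin KRT1 (0.994), FAM83B (0.993), the cornification protease CASP14 (0.993) and CYB5R2 (0.992). Of the other 7 genes, SPTLC3 came closest, at 0.974 and rank 40. LOR had 2.24, 1.92 and 4.68 CPM in the ALI silenced libraries, 53.6, 30.4 and 62.3 CPM in the ALI controls and 0 in the monolayers. For SPTSSB, the nearest were the prostaglandin receptor PTGER3 (0.995), the ankyrin ANK3 (0.983), the arginase ARG1 (0.980) and the lysosomal galactosidase GLA (0.979). ARG1 had at most 0.275 CPM in the ALI silenced libraries, against 6.16, 57.5 and 5.71 CPM in the ALI controls, with library 2 the highest, as for SPTSSB. The 9 points share their grouping and their library depths, so the values describe likeness across these libraries only. SPTSSB and ACER1 were less alike, at 0.873, and they differed in which ALI control was highest: library 2 for SPTSSB and library 3 for ACER1.

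For context, the basal genes were present in all groups: KRT5 averaged 20260, 14490 and 12860 CPM, KRT14 13700, 13130 and 5263 CPM and TP63 335, 252 and 364 CPM in ALI silenced, ALI control and monolayer libraries. The suprabasal and cornification genes averaged at most 16.9 CPM in monolayers. KRT13 averaged 39.2 CPM in ALI silenced, 59.0 CPM in ALI control and 0.415 CPM in monolayer libraries, KRT4 136, 537 and 0.854 CPM, and IVL 385, 831 and 2.29 CPM. In ALI silenced, ALI control and monolayer libraries, KRT1 averaged 66.8, 2773 and 0.304 CPM, KRT10 154, 3386 and 16.9 CPM, FLG 26.8, 340 and 2.02 CPM, and LOR 2.95, 48.8 and 0 CPM. All 7 of these suprabasal genes had a lower mean in the silenced than in the control ALI cultures. Both of their ALI means were above the monolayer mean. ACER1, SPTLC3 and SPTSSB had the same order of means, and so did SPTLC1, ASAH1 and UGCG. For KRT13 and IVL the libraries of the ALI groups overlapped. The share of all genes with this order was not computed, so nothing is read from it.

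Other sphingolipid genes changed in both directions when control cells differentiated. Of the 49 listed, 48 had a row of their own (CERS1 shares its row with a neighbour and was not analysed here) and 42 were tested, of which 11 rose (26.2%) and 15 fell (35.7%) in edgeR's test adjusted over all 12806 genes, where 20.3% of all genes passed as higher and 20.2% as lower, with a median log2 fold change of -0.07 beside 0.03 over all genes. Ceramide synthases, which attach the fatty acid, moved apart: CERS4 rose by 3.98 (SE 0.38, adjusted p = 3.95e-05) and CERS3, which makes the very long-chain ceramides of the skin barrier, rose by 3.31 (SE 0.42, adjusted p = 0.000231), both log2 values. CERS2 fell by 0.69 (SE 0.16, adjusted p = 0.00738). CERS4 had 47.2, 47.4 and 60.7 CPM in ALI controls, against 4.25, 2.73 and 2.77 CPM in monolayers. CERS3 had 157, 348 and 149 CPM in ALI controls, against 28.9, 16.8 and 20.0 CPM in monolayers, with no overlap for either gene. Of the serine palmitoyltransferase inhibitors, ORMDL2 rose by 1.05 (SE 0.21, adjusted p = 0.00346) and ORMDL3 fell by 0.94 (SE 0.27, adjusted p = 0.020). ORMDL3 did not pass when ALI control library 1 (adjusted p = 0.0584), monolayer library 1 (0.0851) or monolayer library 2 (0.0581) was left out. Looked at after its values were seen, CERS5 fell by 0.65 (SE 0.17, adjusted p = 0.0144). CERS6 (-0.42, adjusted p = 0.117) and ORMDL1 (0.60, adjusted p = 0.158), also looked at afterwards, did not pass. In all, 3 of 11 tested de novo synthesis genes rose and 3 fell. Over the 4 groups, 22.2 to 30.0% of the tested genes rose and 22.2 to 50.0% fell. The de novo synthesis shares (27.3% each way) and the sphingomyelin shares (22.2% each way) were near those of all genes, and nothing is called particular to a group. The list was drawn up with earlier results of these data known, so no difference between its shares and those of all genes is read as a result.

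Of 12 tested genes for sphingosine and sphingosine 1-phosphate, 3 rose and 5 fell. The exporter SPNS2 rose by a log2 value of 8.05 (SE 0.57, adjusted p = 7.17e-06), with 145, 58.7 and 166 CPM in ALI controls, against 0.354, 0.506 and 0.532 CPM in monolayers. The phosphatase SGPP2 rose by 6.58 (SE 0.75, adjusted p = 0.000117). It had 20.6, 8.70 and 17.1 CPM in ALI controls, against 0.142, 0.304 and 0 CPM in monolayers. Monolayer counts were 5, 5 and 5 for SPNS2 and 2, 3 and 0 for SGPP2, so both folds rest on few counts. Over 19 alternatives the log2 values lay between 4.29 and 8.40 for SPNS2 and between 3.27 and 7.35 for SGPP2. The kinase SPHK1 fell by 2.86 (SE 0.50, adjusted p = 0.00166), and the receptors S1PR3 and S1PR1 fell by 3.71 (SE 0.59, adjusted p = 0.000958) and 2.09 (SE 0.36, adjusted p = 0.00147). The kinase SPHK1 and these receptors thus fell where SPNS2 and SGPP2 rose, while SPHK2, SGPP1 and SGPL1 did not pass.

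Of 10 tested glycosphingolipid genes, 3 rose and 5 fell. The transfer protein GLTP rose by 4.10 (SE 0.27, adjusted p = 3.95e-06), with 1194, 941 and 888 CPM in ALI controls, against 51.8, 60.3 and 64.1 CPM in monolayers. GALC fell by 1.22 (SE 0.30, adjusted p = 0.00904), and PSAP and SCARB2, the saposin precursor and a lysosomal membrane receptor, fell by 1.17 (SE 0.28, adjusted p = 0.00798) and 1.03 (SE 0.24, adjusted p = 0.00663).

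Of 9 tested genes for sphingomyelin and ceramide phosphate, 2 rose and 2 fell. The neutral sphingomyelinase SMPD3 rose by 6.60 (SE 0.66, adjusted p = 5.39e-05), with 44.1, 14.6 and 39.4 CPM in ALI controls, against 0.425, 0.101 and 0.426 CPM in monolayers. SMPD2 rose by 0.88 (SE 0.24, adjusted p = 0.0167), SAMD8 fell by 0.84 (SE 0.24, adjusted p = 0.0180) and the ceramide kinase CERK fell by 0.59 (SE 0.18, adjusted p = 0.0266). These 3 smaller changes each lost their call when some single libraries were left out. The adjusted p reached 0.0709 for SMPD2 (without monolayer library 2; also lost without 1 or 3), 0.0617 for SAMD8 (without monolayer library 1; also lost without control library 1) and 0.0986 for CERK (without monolayer library 3; also lost without control library 1 or monolayer library 1 or 2). The count of 15 falling genes over the 4 groups was 9 without monolayer library 1. The share of all genes was not computed for that fit, so nothing about the sphingolipid genes is read from the smaller count. ORMDL2, SPNS2, SMPD2, SPHK2 and GBA2 are among the sphingolipid genes that overlap genes on the other strand. Over the libraries, the gene opposite SPHK2, RPL18, had 2556 to 7810 counts. The partner of SPNS2, MYBBP1A, had 129 to 1161, and that of SMPD2, PPIL6, had 1 to 14. DNAJC14, opposite ORMDL2, had 177 to 548, and CREB3, opposite GBA2, had 168 to 542. Whether counting used strand is not said in the sources used here.

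**Figure D4:**
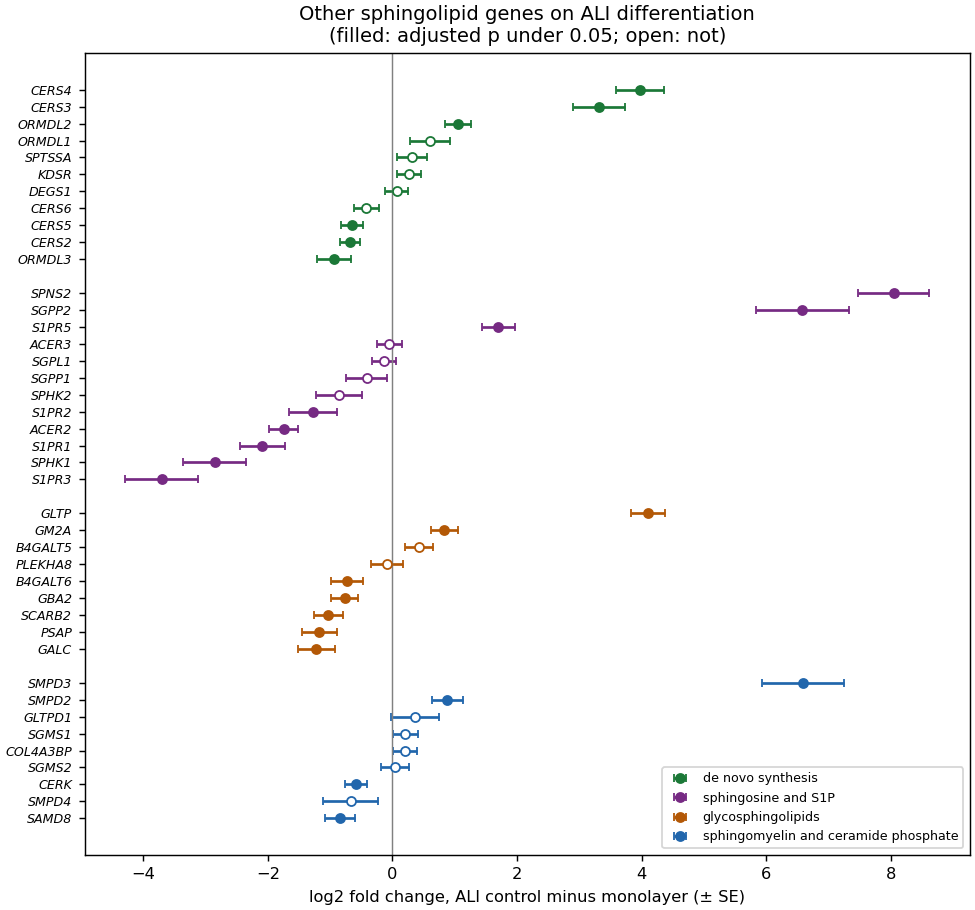
Log2 fold change ± SE of 41 of the 42 tested sphingolipid genes outside the 8, for ALI control minus monolayer, ordered within 4 pathway groups; filled points passed an adjusted p of 0.05 and open ones did not. The rising genes reach 8.05 (SPNS2) and the falling ones -3.71 (S1PR3), with 10 rising and 15 falling among those drawn.

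Between silenced and control ALI cultures, 0 of the 42 passed in either direction in edgeR's test, where 0.226% of all genes passed as higher and 0.703% as lower. In that test 6 had an unadjusted p under 0.05, and DESeq2's Wald test called 2 lower (CERS4 and DEGS1). The shares of all genes were not computed for the unadjusted p or for DESeq2, so nothing is read from these counts. By group, 0 of 11 de novo synthesis, 0 of 12 sphingosine, 0 of 10 glycosphingolipid and 0 of 9 sphingomyelin genes passed. CERS4 came nearest, with 12.2, 27.7 and 12.9 CPM in the ALI silenced libraries, against 47.2, 47.4 and 60.7 CPM in the ALI controls, a log2 fold change of -1.55 (SE 0.34, edgeR adjusted p = 0.0652). It was chosen after its values were seen, as was DEGS1, the desaturase that completes ceramide, at -0.74 (SE 0.19, adjusted p = 0.118). CERS4 passed without silenced library 2, a count of 1 for which the share of all genes was not computed. Without both ALI libraries numbered 2, a count of 6 were called lower (CERK, CERS4, DEGS1, SGPP2, SMPD3 and SPNS2), where 3.31% of all genes were lower. Proliferation markers and the second principal component moved with those libraries, as given above, and their part in this result was not tested.

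Between silenced ALI cultures and monolayers, 11 of the 42 (26.2%) were higher and 14 (33.3%) lower in the silenced cultures, where 15.8% of all genes passed as higher and 15.9% as lower, with a median log2 fold change of -0.28 beside 0.04 over all genes. In de novo synthesis, 3 of 11 rose and 5 fell, with CERS3 higher by 2.61 (SE 0.41, adjusted p = 0.00100), CERS4 by 2.42 (SE 0.36, adjusted p = 0.000808) and ORMDL2 by 0.82 (SE 0.21, adjusted p = 0.0149). ORMDL3 fell by 0.89 (SE 0.27, adjusted p = 0.0297) and CERS5 fell by 0.75 (SE 0.17, adjusted p = 0.00875). For sphingosine and its phosphate, 3 of 12 rose and 4 fell, with SPNS2 higher by 7.57 (SE 0.57), SGPP2 higher by 6.00 (SE 0.75), S1PR3 at -3.03 (SE 0.56), S1PR1 at -2.70 (SE 0.37) and SPHK1 at -2.05 (SE 0.48), with adjusted p at most 0.00979. For glycosphingolipids, 4 of 10 rose and 3 fell, with GLTP higher by 3.56 (SE 0.26, adjusted p = 9.85e-06). The weaker GALC, PSAP and B4GALT5 changes (-1.09, -0.85 and 0.76) had adjusted p = 0.0187, 0.0401 and 0.0257. For sphingomyelin and ceramide phosphate, 1 of 9 rose and 2 fell, shares (11.1 and 22.2%) near those of all genes, with SMPD3 higher by 5.19 (SE 0.65, adjusted p = 0.000280). CERK fell by 1.15 (SE 0.18, adjusted p = 0.00114) and SAMD8 fell by 1.02 (SE 0.24, adjusted p = 0.00903). SPNS2, SGPP2 and SMPD3 rest on the few monolayer counts given above. Over 19 alternatives they lay between 4.01 and 7.78, 2.79 and 6.76, and 1.47 and 5.49, in that order.

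Several of the calls against monolayers depended on single libraries. ORMDL3 lost its call when silenced library 2, silenced library 3, monolayer library 1 or monolayer library 2 was left out (adjusted p up to 0.112). ORMDL2 lost it for silenced library 3 and for monolayer libraries 1 and 2 (up to 0.0634), and GALC for silenced libraries 1 and 3 and monolayer libraries 2 and 3 (up to 0.0783). B4GALT5 lost it without silenced library 1 or 3 or any 1 monolayer (up to 0.101), and PSAP without any 1 library except silenced library 2 and control library 2 (up to 0.154). The count of 14 lower genes was 9 when silenced library 3 or monolayer library 1 was left out, and 8 for monolayer library 2 or 3. The shares of all genes were not computed for these fits, so nothing about the sphingolipid genes is read from the smaller counts. These 42 genes share their monolayer libraries with the comparison of ALI controls, so the likeness of the calls is not an independent result. Their list was drawn up with earlier results of these data known, so the shares above are descriptions.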

How the data were processed

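RNA was measured by polyA-selected, stranded RNA sequencing, per the labels' protocols. Per the submitters' processing notes, the build was hg19, and the tools named are MACS2, Bowtie and STAR 2.4.2a, with no step stated for any. How reads were counted, on which annotation and whether by strand, is not given in the sources used here. Each deposited table held 29800 transcript rows with a raw read count and an RPKM value made by the authors; 511 rows name several genes and 1512 lie on alternate contigs. No row lacked a gene name. The total behind the authors' RPKM was estimated relative to ALI silenced library 1, from the median over rows of the ratio of count to RPKM. As a ratio, it differed most from the relative count total in ALI control library 2 (0.864 against 0.797), so shares were taken within a library. Summed and mean RPKM given per group, and the limma fits on RPKM, carry this difference and have no TMM scaling.

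Counts were summed per gene symbol and chromosome and analysed in R 4.3.3 by edgeR 4.0.16, using TMM scaling, filterByExpr on the 3 groups (12806 genes kept), a robust quasi-likelihood fit of all 9 libraries (6 residual degrees of freedom), and Benjamini-Hochberg adjustment over all genes kept, with a threshold of 0.05. The script was tested on simulated data. CPM use TMM-adjusted library sizes. Where a group had 0 counts, the fold is a bound against 3 counts over that group, which covers counting error only. Comparisons were ALI silenced minus ALI control, ALI control minus monolayer and ALI silenced minus monolayer.

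The 8 members, the 4 pathway groups (de novo synthesis, sphingosine and its phosphate, glycosphingolipids, sphingomyelin and ceramide phosphate), the cell type markers and the squamous genes were chosen with earlier results of these data known. Named besides the members, SPINK7 and SPTSSA are, per pathway group and comparison, up to 5 genes past the threshold with the largest absolute log2 fold change, and the 5 genes most like ACER1 and SPTSSB among those with a mean of at least 5 CPM in a group. Values of 2 genes that this rule names are not reported here. Any other gene was picked after its values had been seen, as stated beside it. Promoter windows are from RefSeq (GRCh38.p14) and were not placed on hg19; 6 members matched the table.

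Monolayer libraries 2 and 3 were closer to each other (median chi-square per gene 0.721) than other pairs of a group (3.88 to 34.1), yet above sampling noise (0.455), and were kept as 2 libraries. Alternatives were DESeq2 1.42.0 size factors and Wald test, no filter and a stricter filter, a replicate block, fits of the compared groups alone, limma 3.58.1 on log2(RPKM + 1) and log2(RPKM + 0.1), each library left out, and both ALI libraries numbered 2 left out. Monolayer libraries 2 and 3 summed as 1 was added after the data were seen.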

Additional observations from a re-analysis of the deposited data

How the results depend on the processing

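The 8 genes were computed under 19 alternatives. The share of all genes called was computed for only 1 of them, without both ALI libraries numbered 2, and for the ALI groups. Counts of called genes under the other alternatives therefore have no such share beside them. Between silenced and control ALI cultures, the log2 fold change lay between -1.52 and -1.19 for SPTLC3, between -7.55 and -3.34 for SPTSSB and between -3.50 and -2.40 for ACER1. Of the other sphingolipid genes, 0 were lower as reported, 2 with DESeq2's Wald test, 1 with no filter on low counts, 6 without both ALI libraries numbered 2, and 0 to 1 with 1 library left out. The SPTSSA difference turned to -0.040 without silenced library 2 and to -0.037 without control library 3, in a range of -0.040 to 0.31 with 1 library left out, and the cause was not tested.

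For ALI controls against monolayers, 9 to 15 of the other sphingolipid genes were lower with 1 library left out, against 15 reported. For silenced cultures against monolayers, the 14 lower became 8 with monolayer libraries 2 and 3 summed and 8 to 16 with 1 library left out. Summing and leaving out leave fewer libraries in the fit; otherwise the cause was not tested.

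Libraries that share a number did not all deviate together. Correlations of their deviations were 0.495, 0.577 and -0.006 for silenced and control ALI cultures, and between -0.217 and 0.128 against monolayers. Control library 2 correlated at 0.577 with silenced library 2, and at -0.691 and -0.109 with silenced libraries 1 and 3. These values do not settle whether the numbers pair the ALI libraries, and the reported fit did not pair them. With the replicate block, 11 of the other genes were higher and 13 lower in ALI controls against monolayers, and 10 higher and 11 lower in silenced cultures against monolayers. The block ended the calls of CERK (ALI controls against monolayers, adjusted p = 0.0516) and PSAP (silenced cultures against monolayers, adjusted p = 0.0545). Among the other genes outside the 8 that the rule names it ended no other call. Silenced library 1 correlated best with control library 3 (0.637), not with its own number.

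From raw counts in place of RPKM, the SPTLC3 share averaged 34.2% in ALI silenced, 54.3% in ALI control and 4.89% in monolayer libraries, in the same order; lengths differ between the genes. With 1 library left out the SPTLC3 share averaged 48.4 to 56.4%, 70.3 to 73.3% and 7.34 to 11.4% in those groups, and the SPTSSB share 0.634 to 0.752%, 23.5 to 48.7% and 0%. On log2(RPKM + 1), which understates changes of low genes, SPTSSB differed by -3.34 between the ALI groups. Depth limits SPTSSB most: 13 counts in all 3 silenced libraries and 0 in monolayers.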

Other observations

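Genes of the 4 pathway groups outside the naming rule were looked at after their values were seen. ACER2, a Golgi alkaline ceramidase, had 4.96, 4.79 and 5.08 CPM in the ALI control libraries, against 18.9, 16.8 and 14.1 CPM in the monolayers, without overlap, and it fell by 1.75 on the log2 scale (SE 0.23, edgeR adjusted p = 0.000284). In the ALI silenced libraries it had 5.79, 5.57 and 4.57 CPM, and its difference from the ALI controls was 0.11 (SE 0.23, adjusted p = 0.899). ACER1 had the opposite order between ALI controls and monolayers, and ACER3 differed by -0.05 (SE 0.20, adjusted p = 0.872). The receptor S1PR5 rose by 1.70 (SE 0.26, adjusted p = 0.000801) in ALI controls against monolayers, where S1PR3 and S1PR1 fell. The ganglioside activator GM2A averaged 727 ± 111 CPM in ALI controls, against 407 ± 43.7 CPM in monolayers (SD, n = 3 each), and rose by 0.83 (SE 0.22, adjusted p = 0.0120), a call it lost without monolayer library 1.

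The 6 pathway genes below the filter were DEGS2, ASAH2, UGT8, SMPDL3B, CERKL and ENPP7. Their highest level in any library was 0.536 CPM. ENPP7 had 0 counts in all 9 libraries, and CERKL had 1 count in all.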
